A study of Saccharomyces cerevisiae with 26 samples.

Results

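The interaction of pH and CO2 describes how far yeast cultures exposed to low pH and high CO2 together departed from the sum of the responses to either stress alone. It was taken from 12 of the 26 libraries of the series, namely every library from a culture in steady state that was diluted at 0.025 per h, and was tested in 5078 of 6600 genes. RNA was sequenced from glucose-limited, aerobic bioreactor cultures of *Saccharomyces cerevisiae* CEN.PK113-7D, a haploid, prototrophic laboratory strain of mating type a. The 4 groups of 3 libraries each were pH 3/50% CO2, pH 3/0.04% CO2, pH 5/50% CO2 and pH 5/0.04% CO2, where 0.04% is compressed air and 50% is compressed air mixed with an equal flow of pure CO2. Of the 3 libraries at pH 3 with 50% CO2, 1 is labelled as a chemostat and 2 as industrial retentostats sampled before biomass retention had begun. The study's methods state that gas exchange of the pH 3 cultures fluctuated in cycles during sampling, and fewer of their cells were viable than at pH 5. All cultures share the strain, the glucose limitation and the dilution rate, but the study's methods give an addition of sulfuric acid to the feed medium of the more acidic cultures. Apart from the retentostats, the labels give only a replicate number to the libraries of a group, and p-values measure only the spread between these libraries. RNA came from whole cultures, in which fewer cells expressing a gene and less RNA per cell cannot be told apart.

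Values are fragments counted per gene, divided by gene length and library depth (FPKM), multiplied so that all 12 libraries had the same median FPKM over the genes tested. The interaction of a gene is the log2 change between 50% and 0.04% CO2 at pH 3, minus the same change at pH 5, on log2(FPKM + 1). A negative interaction means that the combination lay below the sum of the separate log2 changes, and a positive one that it lay above. Interactions were tested in a single limma fit with Benjamini-Hochberg adjustment over the 5078 genes. A gene was called at an adjusted p under 0.05, and met the study's limits at a fold above 2 and an adjusted p under 0.005.

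Between 12528649 and 16709015 reads fell on genes per library, and libraries of a group correlated with r between 0.96 and 0.997. The scaling factors were 0.763 to 0.946 for pH 3/50% CO2, 1.13 to 1.37 for pH 3/0.04% CO2, 0.86 to 1.06 for pH 5/50% CO2 and 0.879 to 1.02 for pH 5/0.04% CO2. Within pH 5, 1 library of each group stood apart from the other 2, replicate 1 at 50% CO2 and replicate 3 at 0.04% CO2. Their root-mean-square deviations from the group mean were 0.345 and 0.323 on the log2 scale, against 0.127 to 0.259 in the other 10 libraries. These deviations correlated with each other across genes with r = 0.847, and with the interaction itself with r = 0.760 and 0.717. On the axis of largest variation between libraries, the first principal component (52.2% of the variance), these 2 libraries lay at -23.2 and -22.1. That was within the range of the pH 3/50% CO2 libraries (-28.6 to -13.2), while the other pH 5 libraries lay between 4.77 and 7.22. The pH 3/air libraries lay between 24.9 and 30.2. The interaction also followed the GC content of the genes, with r = -0.44 across 4988 genes with a reference sequence. Among 10 equal parts of these genes, that with the highest GC content had a median interaction of -0.74 and that with the lowest a median of 0.43. After a smooth trend on GC content had been subtracted within each library, the correlation was -0.01. Counts in the gene lists are therefore also given after this correction and without the 2 libraries that stood apart. The part of GC content and of these libraries in the interaction was not tested.

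**Figure D1:**
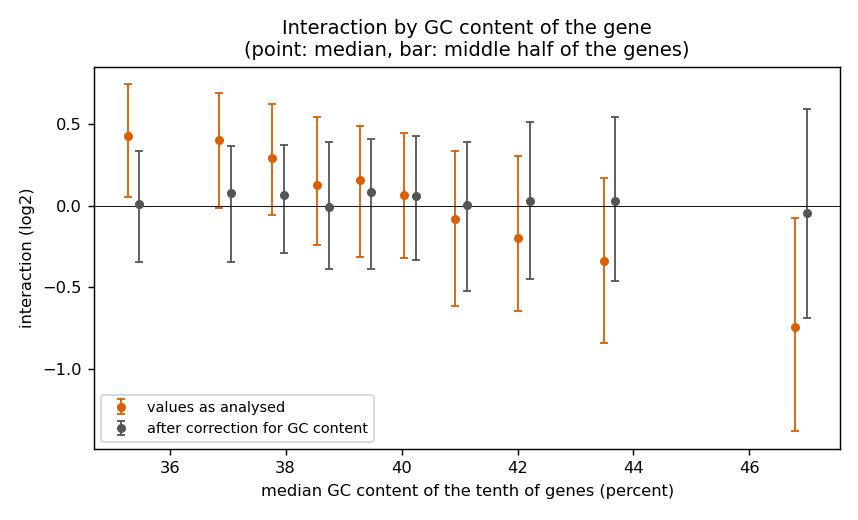
Interaction (log2, vertical axis) in 10 equal parts of the 4988 genes ordered by GC content (horizontal axis, percent), as analysed in orange and after correction for GC content in grey; points are medians and bars span the quartiles. As analysed, the medians run from 0.43 at the lowest GC content to -0.74 at the highest, and after correction all 10 lie between -0.045 and 0.08.

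Dissolved CO2 crosses the plasma membrane freely and is hydrated in the cytosol to bicarbonate and a proton. At low external pH, protons enter along a steeper gradient and are expelled at the cost of ATP by the plasma-membrane ATPase Pma1. The cell wall, a network of glucan and chitin coated with mannoproteins, is remodelled in acid and in weak-acid stress, and the sterol ergosterol sets the order and permeability of the plasma membrane.

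Across all genes, 518 were called above the additive expectation and 688 below it, or 10.2% and 13.5% of the genes tested. At the study's limits the split was 12 higher and 74 lower, or 0.236% and 1.46%. After correction for GC content, 6.05% were called higher and 9.28% lower. Without the 2 pH 5 libraries that stood apart, the shares were 23.9% and 21.9%. List counts below are to be read against these shares. Without scaling, the median interaction of all genes was 0.62 on the log2 scale, and 2332 genes were called higher and 335 lower. The count of 86 genes at the study's limits depended on single libraries: it was 506 without pH 5, 50% CO2 replicate 1, and 23 without pH 5, 0.04% CO2 replicate 3. It was 15 without pH 3, 50% CO2 replicate 1 or pH 5, 0.04% CO2 replicate 1, and at most 2 without pH 3, 50% CO2 replicate 2 or 3, pH 3, 0.04% CO2 replicate 2 or 3, or pH 5, 50% CO2 replicate 2 or 3. It was 61 without pH 3, 0.04% CO2 replicate 1 and 80 without pH 5, 0.04% CO2 replicate 2. At an adjusted p of 0.05 the total of 1206 was 2452 without pH 5, 50% CO2 replicate 1, between 346 and 624 without the libraries just named for counts of at most 2 or pH 5, 0.04% CO2 replicate 3, and between 929 and 1262 without any of the other 4. All 86 genes remained called at an adjusted p of 0.05 in the same direction with any 1 library left out, and without both retentostat libraries. After correction for GC content, 81 of them remained called.

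The calls for CO2 differed in number between the pH values. At pH 3, 50% CO2 raised 1338 genes and lowered 1241 (26.3% and 24.4% of the genes tested), and at pH 5 it raised 41 and lowered 59 (0.807% and 1.16%). In the other direction, pH 3 raised 144 genes and lowered 174 at 50% CO2 (2.84% and 3.43%), and raised 597 and lowered 503 at 0.04% CO2 (11.8% and 9.91%). The 74 genes below the additive expectation at the study's limits shared a form. All 74 were called lower at 50% than at 0.04% CO2 at pH 3, with no overlap between those libraries, and 71 were called higher at pH 3 than at pH 5 in air. In 67 of the 74, the 3 libraries at pH 3 with 0.04% CO2 lay above all 9 others, and 5 were also called higher at 50% CO2 at pH 5. Over all 5078 genes tested, the pH 3 groups were separate with 50% CO2 lower in 1584. The pH 3/air libraries lay above all 9 others in 754 of the 5078. Of the 12 genes above the additive expectation, 10 were called higher with 50% CO2 at pH 3 and 8 lower with 50% CO2 at pH 5, and 10 were called lower at pH 3 than at pH 5 in air. In 7 of these 12, the libraries at pH 5 with 0.04% CO2 lay above all 9 others, as in 111 of all 5078 genes. A gene had to average at least 10 FPKM over the 12 libraries to be tested, and 96 of the 5078 genes did so only through their highest group, the mean of the other 9 libraries being under 10 FPKM. Among them were 3 of the 12 genes (FIG1, PRM1 and FUS1) and 4 of the 74 (YAR068W, YIL012W and MET8 among them). Of 997 list genes with values, 923 passed the filter. For the 96 genes the test is not independent of the filter, and their interactions are given as a description. These counts share libraries with the interaction and describe its form.

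**Figure D2:**
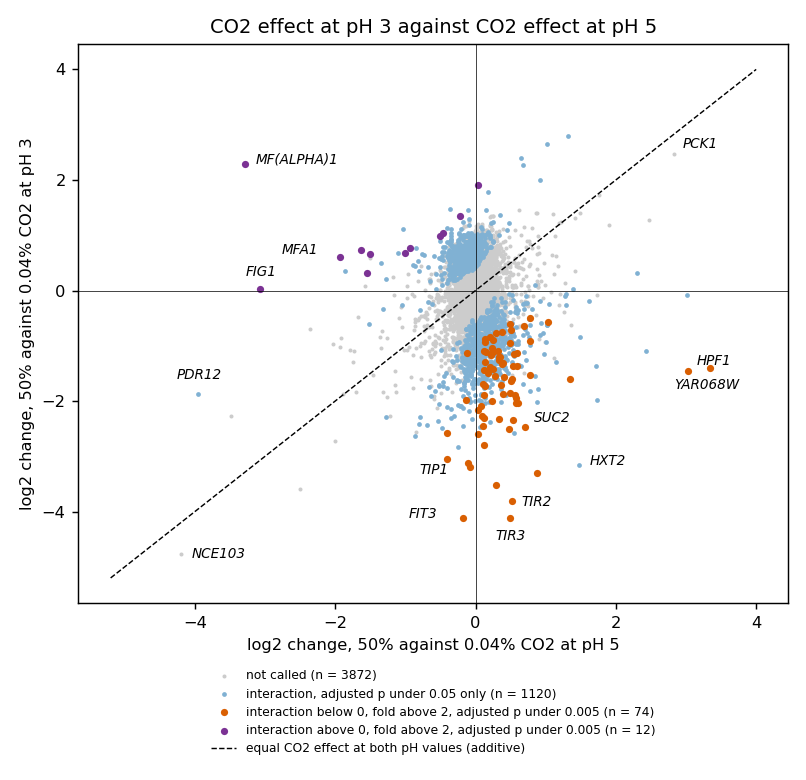
Log2 change between 50% and 0.04% CO2 at pH 3 (vertical axis) against the same change at pH 5 (horizontal axis) for 5078 genes, with the dashed line marking equal changes; the 74 genes in orange and the 12 in purple met the study's limits and the 1120 in blue an adjusted p under 0.05 only. The orange genes lie below the line, all with a negative change at pH 3, and 67 of the 74 have a positive change at pH 5, whereas NCE103 and PCK1 lie close to the line.

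Several of the most negative interactions were in cell-wall mannoproteins, which were higher at pH 3 in air than with 50% CO2 at the same pH. All 5 tested members of the TIR, TIP and DAN list, small serine- and threonine-rich wall proteins known for their induction by cold and anaerobiosis, were called below the additive expectation, with a median interaction of -3.11 against 0.05 over all genes. TIR2 had 23.4, 22.5 and 28.4 FPKM at pH 3/50% CO2, 292, 382 and 409.8 FPKM at pH 3/air, 9.57, 23.8 and 20.2 FPKM at pH 5/50% CO2 and 14.6, 10.2 and 9.68 FPKM at pH 5/air. The libraries at pH 3 in air stood above all 9 others, and the groups at pH 5 overlapped each other. The interaction was -4.33 ± 0.39 (SE, adjusted p = 0.000717), and an additive response would have given 515 FPKM at pH 3 with 50% CO2. TIP1, among the most abundant transcripts of these cultures, had 5922, 5022 and 3802 FPKM with 50% CO2 and 24759.6, 57619 and 59872 FPKM in air at pH 3, against 11772, 19986 and 21086 FPKM with 50% CO2 and 20897, 21542 and 12912 FPKM in air at pH 5. Its lowest libraries were the 3 at pH 3 with 50% CO2, without overlap with any other group, and its interaction was -3.11 ± 0.53 (adjusted p = 0.00468). With CO2, TIP1 fell by 3.19 at pH 3 on the log2 scale (adjusted p = 0.000213), and the change at pH 5 was -0.08 ± 0.37 (adjusted p = 0.984).

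TIR3 had FPKM values of 8.94, 7.88 and 5.35 at pH 3 and 50% CO2, 94.6, 170.3 and 180.0 at pH 3 and 0.04% CO2, 12.1, 44.6 and 41.9 at pH 5 and 50% CO2 and 29.3, 17.4 and 15.6 at pH 5 and 0.04% CO2, with an interaction of -4.61 ± 0.62 (adjusted p = 0.00253). It was highest at pH 3 in air and lowest at pH 3 with 50% CO2, with no overlap between either of these groups and the rest. YIL012W, an open reading frame that ends 374 bases before the start of TIR3 on the same strand, had an interaction of -3.82 ± 0.58 and passed the filter only through pH 3 in air, where it was highest. DAN4 was called at -1.41. PAU23, the remaining called member, had 22.5, 24.4 and 20.2 FPKM at pH 3/50% CO2, 38.1, 31.3 and 36.8 FPKM at pH 3/air, 20.6, 21.3 and 21.3 FPKM at pH 5/50% CO2 and 21.2, 13.7 and 19.2 FPKM at pH 5/air, and its interaction of -0.88 ± 0.21 was -0.25 after correction for GC content (adjusted p = 0.45). The count of 5 was 4 after correction for GC content, 5 without the 2 pH 5 libraries and 3 to 5 with any 1 library left out.

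The promoters of TIR2 and TIR3 are shown because this family is known for its repression by the oxygen-dependent factor Rox1. The letters ATTGTT, the core of the Rox1 motif, were searched on both strands from 250 bases before to 50 bases after the start of each gene in RefSeq release R64 of the S288C genome. They occurred in 4 of the 5 promoters of the list and in 34.4% of all 5916 promoters. Capitals mark the matches, 1 in TIR2 (minus strand, chrXV:346901-347200) and 3 in TIR3 (plus strand, chrIX:333477-333776).
TIR2: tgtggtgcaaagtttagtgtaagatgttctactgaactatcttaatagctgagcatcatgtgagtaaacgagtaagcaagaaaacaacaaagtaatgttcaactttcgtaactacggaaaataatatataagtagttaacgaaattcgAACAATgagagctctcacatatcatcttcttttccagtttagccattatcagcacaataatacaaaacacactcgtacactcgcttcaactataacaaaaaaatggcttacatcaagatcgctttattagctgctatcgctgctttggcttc
TIR3: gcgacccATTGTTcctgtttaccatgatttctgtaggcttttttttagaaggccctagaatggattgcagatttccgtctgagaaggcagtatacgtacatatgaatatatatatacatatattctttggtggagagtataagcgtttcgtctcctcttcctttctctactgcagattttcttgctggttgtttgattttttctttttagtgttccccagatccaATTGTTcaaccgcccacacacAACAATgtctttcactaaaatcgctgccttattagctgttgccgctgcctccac

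The major structural wall proteins moved the same way. Of 17 tested members of the PIR, CWP and related list, 11 were called below the additive expectation and none above, with a median of -1.89. After correction for GC content 9 were called, and without the 2 pH 5 libraries 14. CIS3 (PIR4), which is bound covalently to the glucan through its internal repeats, had 96.6, 101 and 94.2 FPKM with 50% CO2 and 695, 942 and 963 FPKM in air at pH 3, against 169, 341 and 317 FPKM with 50% CO2 and 268, 365 and 236 FPKM in air at pH 5. The groups at pH 3 did not overlap with any other group, one being highest and the other lowest, while the groups at pH 5 overlapped. The interaction was -3.02 ± 0.36 (adjusted p = 0.00153). TOS6, a glycosylphosphatidylinositol-anchored wall protein, had FPKM values of 117, 105 and 101 at pH 3 and 50% CO2, 753, 1199 and 1344 at pH 3 and 0.04% CO2, 105, 235 and 269 at pH 5 and 50% CO2 and 80.9, 143 and 92.6 at pH 5 and 0.04% CO2, with an interaction of -4.17 ± 0.48 (adjusted p = 0.00143). CWP1, a mannoprotein linked to glucan mainly at the birth scar, had 73.3, 52.1 and 30.7 FPKM at pH 3/50% CO2, 244, 295 and 315 FPKM at pH 3/air, 72.6, 131 and 145 FPKM at pH 5/50% CO2 and 92.2, 94.6 and 58.7 FPKM at pH 5/air, with an interaction of -2.97 ± 0.46 (adjusted p = 0.00348). In both genes the libraries at pH 3 in air were the highest.

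Further members of the list with the same direction were SVS1 (-2.55 ± 0.39), SED1 (-2.58), SRL1 (-2.57 ± 0.51) and CCW12 (-2.27). CCW12, a dominant stabilizer of the wall at growth sites, was no longer called after correction for GC content (-1.21, adjusted p = 0.07). PIR3, SPI1 and PST1 were not called, with interactions of -0.14, -0.57 and 0.59. HPF1, a heavily glycosylated mannoprotein of the wall, differed in form. It had 482, 515 and 231 FPKM with 50% CO2 and 1211, 979.5 and 993 FPKM in air at pH 3, against 91.8, 318 and 355 FPKM with 50% CO2 and 40.9, 27.6 and 15.2 FPKM in air at pH 5. The libraries at pH 5 in air were the lowest and those at pH 3 in air the highest, without overlap with the other groups. With CO2 it fell by 1.45 at pH 3 (adjusted p = 0.0299) and rose by 3.03 ± 0.50 at pH 5 (adjusted p = 0.00741), giving an interaction of -4.48 ± 0.70 (adjusted p = 0.00348). NFG1, its neighbour on the same list and a negative regulator of filamentous growth, was not called (-0.52 ± 0.34). Additivity was also fitted with limma on linear FPKM, each gene divided by its mean over the 12 libraries. There NFG1 was called above additivity, at 1.24 in units of its mean (adjusted p = 0.0248). Of the 4 tested genes of that list 2 were called below, and 1 after correction for GC content. YAR068W, an uncharacterised open reading frame, had FPKM values of 4.31, 3.72 and 4.24 at pH 3 and 50% CO2, 15.2, 10.7 and 11.7 at pH 3 and 0.04% CO2, 6.66, 44 and 27.7 at pH 5 and 50% CO2 and 1.59, 1.22 and 0.655 at pH 5 and 0.04% CO2 and the most negative interaction of all, -4.74 ± 0.69. It passed the filter only through pH 5 with 50% CO2. Its 3 libraries at pH 5 in air were the lowest and its groups with the highest levels, pH 3 in air and pH 5 with 50% CO2, overlapped. Since 81.8% of its sequence, in windows of 75 bases, occurs elsewhere in the reference genome and ambiguously mapped reads were removed by the authors, its level is uncertain.

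**Figure D3:**
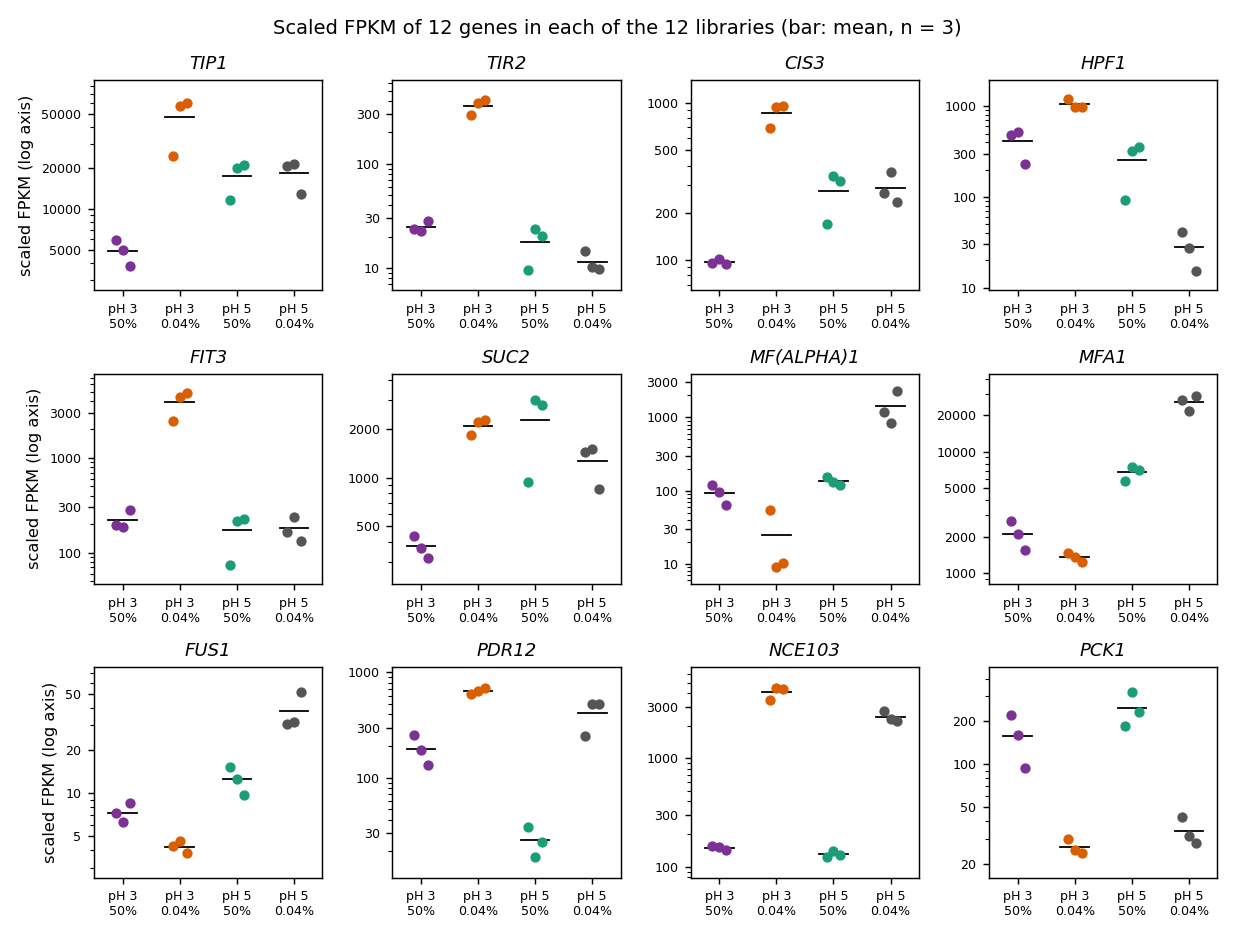
Scaled FPKM (log axes) of 12 genes in each of 12 libraries, with groups from left to right pH 3/50% CO2, pH 3/air, pH 5/50% CO2 and pH 5/air; points are replicates 1 to 3 from left to right and bars are means. TIP1, TIR2, CIS3 and FIT3 are highest at pH 3 in air, MF(ALPHA)1, MFA1 and FUS1 are highest at pH 5 in air, and NCE103 and PCK1 follow CO2 at both pH values.

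Enzymes that build the wall followed with smaller values. In the glucan and chitin list 13 of 30 tested genes were called below the additive expectation and 2 above, with a median of -0.82. The counts were 11 and 2 after correction for GC content and 17 and 5 without the 2 pH 5 libraries. KRE1, a surface protein needed for beta-1,6-glucan assembly, had 76.1, 69.6 and 75 FPKM at pH 3/50% CO2, 209.5, 261 and 276 FPKM at pH 3/air, 82.9, 99.5 and 117 FPKM at pH 5/50% CO2 and 77.4, 112 and 84.4 FPKM at pH 5/air, with an interaction of -1.87 ± 0.24 (adjusted p = 0.00204). All 3 libraries at pH 3 in air exceeded the other 9, and those at pH 3 with 50% CO2 were the lowest. SCW4, a wall protein of the glucanase type (-1.95 ± 0.39), GAS5, a glucan elongase (-1.85 ± 0.43), and CHS2, the chitin synthase of the septum (-1.21 ± 0.25), were called in the same direction. Of 10 tested genes for the separation of daughter cells, 3 were called below the additive expectation, EGT2, AMN1 and DSE4, and 6 without the 2 pH 5 libraries. Over all genes 13.5% were called below and 10.2% above, and without those 2 libraries 21.9% and 23.9%. The lower counts were 4 to 16 of 30 and 0 to 7 of 10 with any 1 library left out, lowest without pH 5, 50% CO2 replicate 3 and highest without pH 5, 50% CO2 replicate 1.

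In the cell wall integrity list, genes that signal wall damage, 3 of 18 tested genes were called above and 2 below the additive expectation, or 16.7% and 11.1%, near the shares over all genes of 10.2% and 13.5%. The median was -0.19. With GC content corrected, 0 were called above and 2 below, and without the 2 pH 5 libraries 4 and 5. Without those libraries 23.9% of all genes were called above and 21.9% below. The sensor WSC2 had 31, 29.8 and 40.4 FPKM with 50% CO2 and 142, 145 and 151 FPKM in air at pH 3, against 47.2, 95.5 and 86.2 FPKM with 50% CO2 and 92.1, 101 and 65.7 FPKM in air at pH 5 and an interaction of -1.87 ± 0.34 (adjusted p = 0.00607). It was highest at pH 3 in air, whereas the sensor WSC1 (SLG1 in the reference annotation) was not called, at -0.19 ± 0.18 (adjusted p = 0.397). MKK1, a kinase of the middle tier, was called at -0.96 ± 0.17 (adjusted p = 0.00601). SLT2, the terminal kinase, had FPKM values of 97.2, 96.2 and 98.2 at pH 3 and 50% CO2, 117, 115 and 114 at pH 3 and 0.04% CO2, 53, 55.3 and 57.5 at pH 5 and 50% CO2 and 86.5, 84.8 and 84.1 at pH 5 and 0.04% CO2. All groups were separate, with the highest level at pH 3 in air and the lowest at pH 5 with 50% CO2, but the interaction was only 0.37 ± 0.12 (adjusted p = 0.0488), and 0.37 after correction for GC content (adjusted p = 0.0622). PKC1 (0.42 ± 0.16), RLM1 (-0.44 ± 0.19), SKN7 (-0.27 ± 0.24) and SKO1 (0.09 ± 0.14) were not called. ROM1, an activator of the GTPase Rho1, was called at 0.63 ± 0.13, and KDX1, a kinase-like target of the pathway, at 0.44 ± 0.15. For both, the call was lost after correction for GC content (adjusted p = 0.162 and 0.441). With additivity on linear FPKM, KDX1 was at -0.01 in units of its mean and was not called. MSB2, the mucin sensor that feeds the osmotic and filamentous pathways, had 32.7, 31.2 and 23.9 FPKM at pH 3/50% CO2, 96.7, 117 and 117 FPKM at pH 3/air, 72.3, 92.9 and 96.7 FPKM at pH 5/50% CO2 and 85.9, 86.9 and 66.9 FPKM at pH 5/air. Its libraries at pH 3 with 50% CO2 were the lowest of all, and the interaction was -2.01 ± 0.23 (adjusted p = 0.00143). In the list of HOG signalling and glycerol synthesis, 2 of 20 were called in each direction, or 10%, near the shares over all genes. Without the 2 pH 5 libraries 5 were above and 3 below, where 23.9% and 21.9% of all genes were called. STL1, the glycerol-proton symporter, was the most positive at 1.75 ± 0.52 (adjusted p = 0.0365).

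Some genes of iron acquisition were called below the additive expectation. FIT3, a mannoprotein that retains siderophore-bound iron in the wall, had 194, 185 and 281 FPKM with 50% CO2 and 2465, 4394 and 4867 FPKM in air at pH 3, against 74.9, 217 and 227 FPKM with 50% CO2 and 166, 241 and 133 FPKM in air at pH 5. The 3 libraries at pH 3 in air exceeded all others, and the other 3 groups overlapped. The interaction was -3.94 ± 0.58 (adjusted p = 0.00317). FTR1, the high-affinity iron permease, had FPKM values of 254, 243 and 219 at pH 3 and 50% CO2, 452, 450.1 and 479 at pH 3 and 0.04% CO2, 248, 398 and 331 at pH 5 and 50% CO2 and 199, 264 and 222 at pH 5 and 0.04% CO2, with an interaction of -1.44 ± 0.24 (adjusted p = 0.00468). Its 3 libraries at pH 3 in air were again above all others. Over the list of iron uptake and siderophore transport, 6 of 23 tested genes were called below the additive expectation and none above, with a median of -0.52. The count was 4 after correction for GC content and 11, with 1 above, without the 2 pH 5 libraries. Leaving out 1 library gave 2 (without pH 5, 50% CO2 replicate 2 or 3) to 12 (without pH 5, 50% CO2 replicate 1). ISU1, a scaffold for iron-sulfur clusters, was at -1.93 ± 0.46 and the vacuolar transporter FTH1 at -0.73 ± 0.19.

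The promoter of FIT3 is shown for its match to TGCACCC, the core bound by the iron regulator Aft1. These letters, searched on both strands, were found in 10 of the 23 promoters of the iron list and in 1.3% of all promoters. In FIT3 (minus strand, chrXV:1061006-1061305) the single match, in capitals, lies on the opposite strand of the sequence printed.
FIT3: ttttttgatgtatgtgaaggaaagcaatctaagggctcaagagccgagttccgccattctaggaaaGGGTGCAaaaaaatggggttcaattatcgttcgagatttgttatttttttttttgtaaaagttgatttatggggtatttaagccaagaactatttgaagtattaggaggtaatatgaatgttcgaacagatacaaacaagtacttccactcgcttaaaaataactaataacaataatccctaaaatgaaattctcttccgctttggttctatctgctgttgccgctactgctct

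Several genes of sugar uptake and hydrolysis were called below the additive expectation. SUC2, the secreted invertase, had 439, 368 and 321 FPKM at pH 3/50% CO2, 1819, 2187 and 2247 FPKM at pH 3/air, 938, 3009 and 2799 FPKM at pH 5/50% CO2 and 1433, 1499 and 852 FPKM at pH 5/air. The 3 libraries at pH 3 with 50% CO2 were below all 9 others, and pH 5 with 50% CO2 overlapped both groups in air. The interaction was -3.18 ± 0.54 (adjusted p = 0.00481). HXT2, a high-affinity hexose transporter, had 163, 138 and 142 FPKM with 50% CO2 and 1481, 1219 and 1269 FPKM in air at pH 3, against 652, 1754 and 1822 FPKM with 50% CO2 and 679, 1034 and 137 FPKM in air at pH 5, with an interaction of -4.63 ± 0.85 (adjusted p = 0.00619). Replicate 3 at pH 5 in air was as low as the group at pH 3 with 50% CO2. The transporters HXT4 (-3.53) and HXT3 (-3.08) were called in the same direction. Of 14 tested genes for hexose transport and sensing, 6 were called below and 1 above the additive expectation, and the gene above was the glucose sensor RGT2 at 0.48 ± 0.13 (adjusted p = 0.0258). With GC content corrected, 4 were called below. In glycolysis and fermentation 8 of 23 were called below and none above, with a median of -0.70. After correction for GC content 5 were called below and the median was -0.36, and without the 2 pH 5 libraries 11 were called below. TDH3 (glyceraldehyde-3-phosphate dehydrogenase, -2.18 ± 0.52), ENO2 (enolase, -2.38 ± 0.45) and GLK1 (glucokinase, -2.18 ± 0.42) were among them. Leaving out 1 library gave between 1 and 8 hexose genes and between 2 and 13 glycolytic genes, with the largest counts again without pH 5, 50% CO2 replicate 1.

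Genes of gluconeogenesis and the use of acetate were divided between those called and those not called. PCK1, the first committed enzyme of gluconeogenesis, had FPKM values of 221, 161 and 94.1 at pH 3 and 50% CO2, 30, 25.1 and 23.6 at pH 3 and 0.04% CO2, 186, 324 and 234 at pH 5 and 50% CO2 and 42.7, 31.1 and 27.8 at pH 5 and 0.04% CO2. The libraries with 50% CO2 were higher than those in air at both pH values without overlap, by 2.48 ± 0.29 at pH 3 and 2.82 ± 0.29 at pH 5 on the log2 scale (adjusted p = 0.000213 and 0.00054). Its interaction was -0.35 ± 0.41 (adjusted p = 0.514). ICL1, isocitrate lyase of the glyoxylate cycle, was higher with CO2 by 1.41 ± 0.27 at pH 3 and 1.49 ± 0.27 at pH 5, with an interaction of -0.08 ± 0.38 (adjusted p = 0.879). FBP1, fructose-1,6-bisphosphatase, was higher by 1.27 ± 0.29 at pH 3 and by 2.47 ± 0.29 at pH 5, and its interaction of -1.20 ± 0.41 missed the threshold (adjusted p = 0.052). These tests do not show that the responses were equal at both pH values.

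Other genes of the same list were called below the additive expectation, 12 of 26 in all and none above, with a median of -0.92. ACS1, acetyl-CoA synthetase, had 340.0, 311 and 199 FPKM at pH 3/50% CO2, 694, 1309.7 and 1521 FPKM at pH 3/air, 418, 677 and 562 FPKM at pH 5/50% CO2 and 419, 384 and 159 FPKM at pH 5/air, with an interaction of -2.88 ± 0.55 (adjusted p = 0.00719). ADH2, the glucose-repressed alcohol dehydrogenase, had 2134, 2021 and 1273 FPKM with 50% CO2 and 3939, 7468 and 7576 FPKM in air at pH 3, against 2894, 4950.4 and 4478 FPKM with 50% CO2 and 3164, 2407 and 1305 FPKM in air at pH 5, with an interaction of -2.68 ± 0.52 (adjusted p = 0.00749). In both, the pH 3 groups were separate and the pH 5 groups overlapped. ATO3, a membrane protein of ammonium and acetate export (-2.37 ± 0.46), ALD4, mitochondrial acetaldehyde dehydrogenase (-1.84 ± 0.38), YAT1, carnitine acetyltransferase (-3.09), and the lactate transporter JEN1 (-1.72) were further called members. The count of 12 became 9 after correction for GC content, and 5 without 1 library in 6 cases, which were pH 3, 50% CO2 replicates 2 and 3, pH 3, 0.04% CO2 replicates 2 and 3 and pH 5, 50% CO2 replicates 2 and 3. In the tricarboxylic acid cycle 4 of 15 (26.7%) and in the respiratory chain and ATP synthase 7 of 36 (19.4%) were called below the additive expectation. Over all genes the share was 13.5%. None was called above, and FUM1 (fumarase, -1.55 ± 0.33) and SDH1 (succinate dehydrogenase, -1.97 ± 0.37) were the most negative. Without the 2 pH 5 libraries the lower counts were 6 and 10, where 21.9% of all genes were called below. After correction for GC content they were 4 and 5, where 9.28% of all genes were called below.

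Ergosterol synthesis had the largest share of called genes of any list with more than 10 tested genes. Of 25 tested genes, 17 were called below the additive expectation and none above, with a median of -1.24. The count was 16 after correction for GC content and 22 without the 2 pH 5 libraries. Along the pathway the called genes ran from ERG10 (-1.67), ERG13 (-1.50) and HMG1 (-1.86 ± 0.40), which make mevalonate, over ERG9 (-0.99) and ERG1 (-1.21), which make and oxidise squalene, to the late enzymes ERG24 (-1.45), ERG25 (-1.86), ERG26 (-1.06), ERG6 (-1.30 ± 0.25) and ERG2 (-1.70). HMG1, the rate-limiting reductase, had FPKM values of 129.7, 110.4 and 97.1 at pH 3 and 50% CO2, 200.2, 404 and 405 at pH 3 and 0.04% CO2, 121, 201 and 174 at pH 5 and 50% CO2 and 151, 138 and 98 at pH 5 and 0.04% CO2. The group at pH 3 in air overlapped with pH 5 with 50% CO2 through its replicate 1 and lay above the other 2 groups. ERG6, sterol C-24 methyltransferase, had 433, 460.4 and 440.1 FPKM at pH 3/50% CO2, 719, 1021 and 1118 FPKM at pH 3/air, 408, 533 and 432 FPKM at pH 5/50% CO2 and 426, 362 and 378 FPKM at pH 5/air, with pH 3 in air above all other libraries. In the whole list 21 genes were called lower with CO2 at pH 3, 16 higher at pH 3 than at pH 5 in air, and none in either direction with CO2 at pH 5. Over all genes 24.4% were called lower with CO2 at pH 3 and 11.8% higher at pH 3 in air. With CO2 at pH 5 only 0.807% of all genes were called higher and 1.16% lower. IDI1 (0.21) and ERG20 (0.26), which make the isoprenoid precursors, and ERG11 (-1.27, adjusted p = 0.057), lanosterol demethylase, were not called.

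PDR11, a transporter for sterol uptake, had 15.2, 12.9 and 10 FPKM with 50% CO2 and 36.1, 59.7 and 55.8 FPKM in air at pH 3, against 12.4, 25.2 and 24.1 FPKM with 50% CO2 and 15.3, 13.6 and 10.5 FPKM in air at pH 5. The libraries at pH 3 in air lay above all 9 others, among which all groups overlapped. It was the only member of the list at the study's limits, with an interaction of -2.46 ± 0.38 (adjusted p = 0.00348). The heme enzymes HEM1 (-1.68 ± 0.33) and HEM13 (-1.74 ± 0.37) and the oxygen-responsive activator HAP1 (-1.25 ± 0.27) were called in the same direction, 3 of 8 tested genes of their list, and 4 without the 2 pH 5 libraries. The count of 17 ergosterol genes fell to between 6 and 11 when 1 library was left out in 7 cases. It was 6 without pH 5, 50% CO2 replicate 3, 7 without replicate 2 of that group, 8 without pH 3, 0.04% CO2 replicate 2 or 3, 9 without pH 3, 50% CO2 replicate 2, and 11 without pH 3, 50% CO2 replicate 3 or pH 5, 0.04% CO2 replicate 3.

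**Figure D4:**
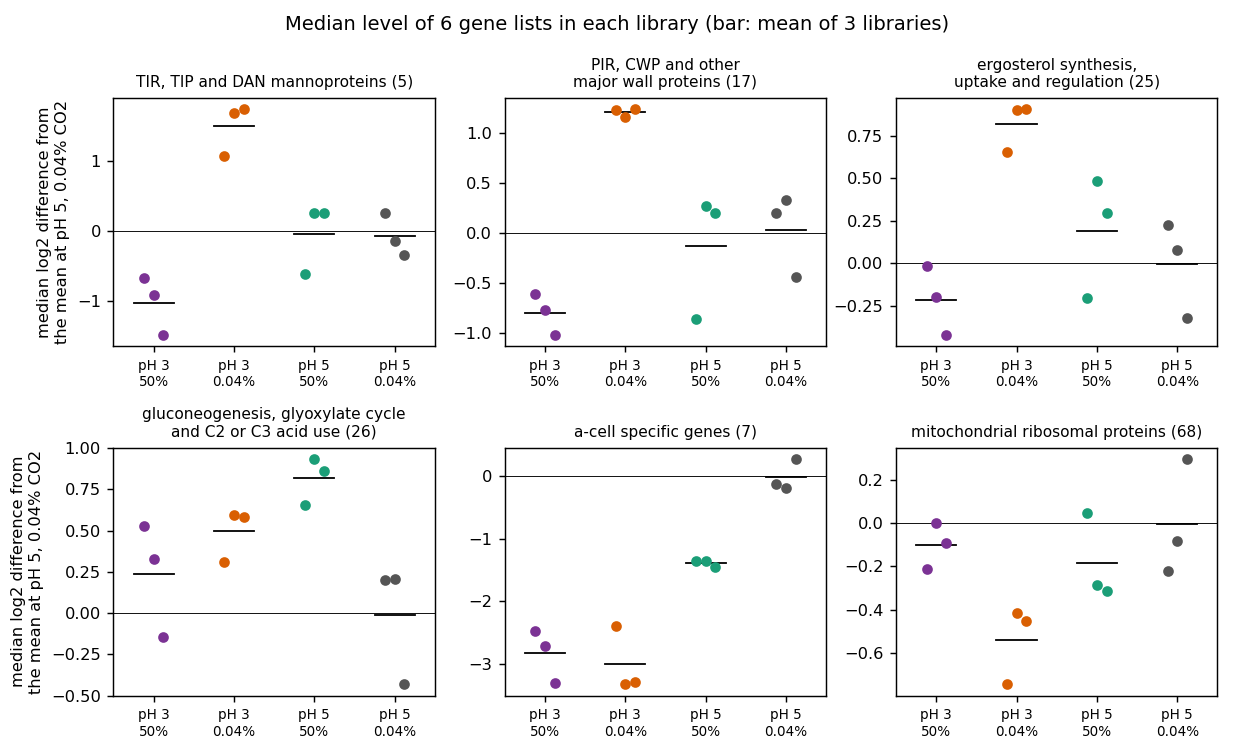
Median log2 difference of 6 gene lists from their mean at pH 5 with 0.04% CO2 (vertical axis) in each of 12 libraries, with the number of genes tested in brackets; points are replicates 1 to 3 from left to right and bars are means of 3. The 2 wall lists and ergosterol synthesis peak in the 3 libraries at pH 3 in air, and the a-cell specific genes are highest at pH 5 in air and low in both groups at pH 3.

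Carbonic anhydrase had the largest response to CO2 of the genes described here, and its interaction was not called. NCE103, carbonic anhydrase, which supplies bicarbonate when CO2 is scarce, had FPKM values of 155, 150.3 and 142 at pH 3 and 50% CO2, 3491, 4451 and 4379.7 at pH 3 and 0.04% CO2, 122.7, 139 and 129 at pH 5 and 50% CO2 and 2717, 2332 and 2195 at pH 5 and 0.04% CO2. Libraries with 50% CO2 were far below those in air at either pH without overlap, and the gene fell by 4.77 at pH 3 and fell by 4.20 at pH 5 on the log2 scale (adjusted p = 2.64e-09 and 1.15e-08). Its interaction was -0.57 ± 0.20 (adjusted p = 0.0584). Among 9 tested genes for carbonic anhydrase and bicarbonate-using enzymes, 5 were called below and 1 above the additive expectation, with a median of -0.65. CPA1 (-1.34 ± 0.39), which makes carbamoyl phosphate for arginine, was the most negative of them and DUR1,2 (1.00 ± 0.32), urea amidolyase, was the positive one. The 5 became 3 after correction for GC content, 0 without pH 3, 0.04% CO2 replicate 2 or 3 or pH 5, 50% CO2 replicate 2, 1 without pH 3, 50% CO2 replicate 2 or 3, pH 5, 50% CO2 replicate 3 or pH 5, 0.04% CO2 replicate 3, and 8 without pH 5, 50% CO2 replicate 1.

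Transporters for acid stress went in different directions. PDR12, the weak-acid exporter, had 252, 182 and 132 FPKM at pH 3/50% CO2, 625, 669 and 715 FPKM at pH 3/air, 34, 17.6 and 24.6 FPKM at pH 5/50% CO2 and 247, 501 and 498 FPKM at pH 5/air. The groups were separate except that replicate 1 at pH 3 with 50% CO2 lay just above replicate 1 at pH 5 in air. With CO2, PDR12 fell by 1.87 at pH 3 and fell by 3.96 at pH 5 on the log2 scale, an interaction of 2.09 ± 0.44 (adjusted p = 0.0107). With additivity on linear FPKM the interaction was -0.28 in units of the gene's mean and was not called. TPO2, a polyamine exporter controlled by the acetate-responsive factor Haa1, had 13, 11.5 and 11.5 FPKM with 50% CO2 and 32.4, 40.6 and 43.9 FPKM in air at pH 3, against 10.2, 21.1 and 23.4 FPKM with 50% CO2 and 6.28, 10.1 and 3.52 FPKM in air at pH 5 and an interaction of -2.96 ± 0.46 (adjusted p = 0.00348). It was highest in the 3 libraries at pH 3 in air and lowest in those at pH 5 in air. TPO1, a related exporter, was called at -1.08 ± 0.29, a call lost after correction for GC content (adjusted p = 0.131). PMA1, the proton pump, had FPKM values of 1132, 902 and 389 at pH 3 and 50% CO2, 2157, 1548 and 1649 at pH 3 and 0.04% CO2, 757, 1444 and 1239.6 at pH 5 and 50% CO2 and 816, 1047 and 632 at pH 5 and 0.04% CO2. Its groups at pH 3 were separate, and the interaction was -1.71 ± 0.52 (adjusted p = 0.0394), or -1.47 after correction for GC content (adjusted p = 0.0505). Over the lists, 1 of 14 weak-acid genes was called higher (7.14%) and 2 lower (14.3%), against 10.2% and 13.5% over all genes. Of the proton pump and ion transport list, 2 of 10 genes (20%) were called lower. Of 19 V-ATPase genes, 1 was called higher (5.26%) and 3 lower (15.8%). With GC content corrected, 1 weak-acid gene was called in each direction, no gene of the proton pump list, and 3 V-ATPase genes lower. Without the 2 pH 5 libraries 4 weak-acid genes were called higher and 5 lower, where 23.9% and 21.9% of all genes were called. In that fit 4 genes of the proton pump list were lower, and 3 V-ATPase genes were higher and 8 lower. In the Rim101 pathway, which responds to alkaline pH, 2 of 10 were called higher, none after correction for GC content and 4 without the 2 pH 5 libraries.

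Among the genes above the additive expectation at the study's limits were several of mating. Of these, FIG1, PRM1 and FUS1 passed the filter only through pH 5 in air. In haploid cells of mating type a, the a-cell specific genes make and export a-factor and sense alpha-factor, and the pheromone kinase cascade acts through the factor Ste12. All 7 a-cell specific genes were expressed in every library, and 5 were called above the additive expectation and none below, with a median of 1.77. MFA1, which encodes a-factor, had 2679.5, 2083 and 1558 FPKM at pH 3/50% CO2, 1476, 1357 and 1239 FPKM at pH 3/air, 5754, 7502 and 7091 FPKM at pH 5/50% CO2 and 26900.1, 21828 and 29066 FPKM at pH 5/air. The libraries formed 4 separate groups with the highest levels at pH 5 in air. With CO2, MFA1 rose by 0.60 ± 0.22 at pH 3 (adjusted p = 0.0368) and fell by 1.93 at pH 5 (adjusted p = 0.000902). The interaction was 2.54 ± 0.31 (adjusted p = 0.00153). BAR1, the protease that degrades alpha-factor, had 20.2, 17.8 and 11.8 FPKM with 50% CO2 and 16.3, 10.9 and 11.9 FPKM in air at pH 3, against 74.9, 75.7 and 64.8 FPKM with 50% CO2 and 183, 200.1 and 260.0 FPKM in air at pH 5, with an interaction of 1.87 ± 0.29 (adjusted p = 0.00348). At pH 3 the levels with and without CO2 overlapped.

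MF(ALPHA)1, the alpha-factor precursor normally made by cells of the other mating type, had the most positive interaction of all, 5.58 ± 0.79 (adjusted p = 0.00307). It had FPKM values of 119, 95.7 and 64.2 at pH 3 and 50% CO2, 55, 9.1 and 10.4 at pH 3 and 0.04% CO2, 155, 131 and 121 at pH 5 and 50% CO2 and 1193, 844 and 2319 at pH 5 and 0.04% CO2. In air the pH 3 libraries were the lowest and the pH 5 libraries the highest, and with 50% CO2 both groups lay between these. The other 3 alpha-cell specific genes were lower than MF(ALPHA)1 in every library at pH 5 in air, with STE3, the a-factor receptor, at 50.3, 40.6 and 36.2 FPKM and SAG1, the alpha agglutinin, at 41.2, 35.8 and 24.8 FPKM. SAG1 was called at -0.90 ± 0.26 (adjusted p = 0.0331), in the opposite direction. FIG1, a membrane protein of the mating projection, had 2.02, 2.15 and 2.48 FPKM at pH 3/50% CO2, 2.15, 2.4 and 1.88 FPKM at pH 3/air, 4.2, 2.77 and 2.32 FPKM at pH 5/50% CO2 and 24, 22.2 and 65.2 FPKM at pH 5/air. Its libraries at pH 5 in air lay above all 9 others, and the other 3 groups overlapped. For FIG1 the additive sum lay at -0.626 FPKM, a level that cannot occur, so its interaction of 3.10 ± 0.48 was fixed in part by the floor of the scale. It passed the filter only through pH 5 in air. For MF(ALPHA)1, FUS1 and PRM1 the additive level lay above 0 but also close to this floor, which limits how their interactions can be read.

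FUS1, which acts in cell fusion, had 7.21, 6.22 and 8.52 FPKM with 50% CO2 and 4.23, 4.63 and 3.77 FPKM in air at pH 3, against 15.2, 12.6 and 9.78 FPKM with 50% CO2 and 30.8, 31.5 and 51.9 FPKM in air at pH 5. PRM1, which acts in membrane fusion, had FPKM values of 5.36, 4.94 and 6.5 at pH 3 and 50% CO2, 3.6, 2.55 and 2.71 at pH 3 and 0.04% CO2, 9.15, 6.52 and 6.99 at pH 5 and 50% CO2 and 22.3, 20.1 and 35.4 at pH 5 and 0.04% CO2. In both genes the 4 groups ran in the same order, highest at pH 5 in air, then pH 5/50% CO2, pH 3/50% CO2 and pH 3/air, without overlap. The interactions were 2.18 ± 0.30 for FUS1 and 2.37 ± 0.31 for PRM1. Both genes passed the filter only through pH 5 in air, the group in which they were high. Of 21 tested genes of the pheromone response, 9 were called above and 1 below the additive expectation, with a median of 0.77. The 9 include FIG1, FUS1 and PRM1, so this count is in part a description. After correction for GC content 6 were called above and without the 2 pH 5 libraries 13. DIG1, a repressor of Ste12 and the gene below, was at -0.15 after the correction and not called. KAR4 (1.62), FUS2 (1.37) and PRM2 (1.32) were called above the additive expectation, whereas the kinases FUS3 (0.37) and STE7 (0.12) and STE12 itself (0.26) were not called. Of the 21 genes, 17 were called lower and 1 higher at pH 3 than at pH 5 in air, against 9.91% and 11.8% of all genes. With any 1 library left out, 6 to 13 pheromone genes and 4 to 7 a-cell specific genes were called above.

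The promoters of FUS1 and PRM1 are shown because they hold repeated matches to TGAAACA, the pheromone response element bound by Ste12, searched on both strands. The letters occurred in 11 of the 21 promoters of the pheromone list, in 5 of 7 of the a-cell specific genes and in 7.25% of all promoters. Of the 12 genes above the additive expectation at the study's limits, 3 had a match. The promoters of FIG1, MFA1 and MF(ALPHA)1 had none. Capitals mark 2 matches in FUS1 (plus strand, chrIII:71553-71852) and 3 in PRM1 (plus strand, chrXIV:110667-110966), those of PRM1 in reverse complement.
FUS1: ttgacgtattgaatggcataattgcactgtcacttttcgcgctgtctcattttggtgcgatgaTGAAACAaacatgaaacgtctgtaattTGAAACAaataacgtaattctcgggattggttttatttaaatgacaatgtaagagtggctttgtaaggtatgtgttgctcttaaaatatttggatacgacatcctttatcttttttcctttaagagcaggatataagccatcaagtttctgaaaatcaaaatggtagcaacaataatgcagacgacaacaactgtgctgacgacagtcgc
PRM1: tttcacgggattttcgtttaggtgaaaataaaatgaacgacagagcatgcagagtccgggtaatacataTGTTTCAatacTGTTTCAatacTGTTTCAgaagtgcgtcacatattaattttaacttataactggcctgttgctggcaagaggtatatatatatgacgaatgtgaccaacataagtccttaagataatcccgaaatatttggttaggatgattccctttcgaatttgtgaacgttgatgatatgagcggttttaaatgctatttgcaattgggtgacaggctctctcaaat

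The remaining genes above the additive expectation at the study's limits lay outside the mating lists. NRS1, a regulator of cell cycle entry, had 143, 149 and 134 FPKM at pH 3/50% CO2, 34.7, 36 and 40.3 FPKM at pH 3/air, 124, 60 and 78.1 FPKM at pH 5/50% CO2 and 74.1, 77.8 and 92.4 FPKM at pH 5/air, with an interaction of 1.87 ± 0.29 (adjusted p = 0.00348). The 3 libraries at pH 3 with 50% CO2 were above all others and those at pH 3 in air below all others. YEF1, an ATP-NADH kinase, had 174, 161 and 163 FPKM with 50% CO2 and 122, 97 and 94.5 FPKM in air at pH 3, against 85.3, 54.8 and 58.2 FPKM with 50% CO2 and 143, 112 and 142 FPKM in air at pH 5, with an interaction of 1.68 ± 0.25 (adjusted p = 0.00317). It was highest at pH 3 with 50% CO2 and lowest at pH 5 with 50% CO2, without overlap. CNL1, a subunit of the endosomal BLOC-1 complex, was at 1.51 ± 0.25, CIS1 at 1.72 ± 0.26, YNR068C at 1.57 ± 0.19 and DPA10 at 1.48 ± 0.24. DPA10 was highest in the 3 libraries at pH 3 with 50% CO2 (962, 881 and 709) and ranged from 265 to 490.4 in the other 9.

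Mitochondrial ribosomal proteins gave the largest positive count of any list. Of 68 tested genes, 22 were called above and 2 below the additive expectation, with a median of 0.65. The list was chosen by name pattern and also caught YMR1, a lipid phosphatase. MRP49 had FPKM values of 163, 191 and 199.7 at pH 3 and 50% CO2, 113, 123.2 and 125 at pH 3 and 0.04% CO2, 188, 139 and 139.8 at pH 5 and 50% CO2 and 169, 191 and 226 at pH 5 and 0.04% CO2, and MRP35 had 216, 236 and 249 FPKM at pH 3/50% CO2, 133, 155 and 155 FPKM at pH 3/air, 225, 185 and 179 FPKM at pH 5/50% CO2 and 201, 213 and 257 FPKM at pH 5/air. The pH 3 groups were separate in both, and pH 3 in air was the lowest of all groups. Their interactions were 0.94 ± 0.22 and 0.85 ± 0.20 (adjusted p = 0.0162 and 0.016). MRPL19 (-0.94 ± 0.19) and MRPL4 (-1.32 ± 0.30) went the other way. The count of 22 was 12 after correction for GC content, 40 without the 2 pH 5 libraries, and 43 without pH 5, 50% CO2 replicate 1 or 35 without pH 5, 0.04% CO2 replicate 1. It was 1 without pH 5, 50% CO2 replicate 2 or 3 and 3 to 6 without pH 3, 50% CO2 replicate 2 or 3, any replicate at pH 3 with 0.04% CO2, or pH 5, 0.04% CO2 replicate 3. Of 138 cytosolic ribosomal genes, a list that also holds RPP1 of RNase P, 2 were called above and 10 below, or 1.45% and 7.25%, under the shares over all genes of 10.2% and 13.5%. The GC correction left 3 above and 5 below. Without the 2 pH 5 libraries there were 4 and 25, where 23.9% of all genes were called above and 21.9% below. Leaving out 1 library gave 2 to 36 below. The count was 2 without pH 3, 0.04% CO2 replicate 2 or 3 or pH 5, 50% CO2 replicate 2 or 3. It was 36 without pH 5, 50% CO2 replicate 1. Those called below included RPP0 (-2.33 ± 0.40) and RPL3 (-1.38 ± 0.24). Many of these genes are near-identical pairs, whose reads were partly removed as ambiguous. In ribosome biogenesis 4 of 44 were called above and 1 below, and the gene below was NOP1, the nucleolar methyltransferase, at -1.69 ± 0.28 (adjusted p = 0.00468). The GC correction left none above. There were 18 above without the 2 pH 5 libraries, 17 without pH 5, 50% CO2 replicate 1, and none without any 1 of 7 other libraries.

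Among genes of nitrogen metabolism, PUT1, proline oxidase, had 120.3, 117 and 111 FPKM with 50% CO2 and 128, 87.7 and 91.3 FPKM in air at pH 3, against 37, 29.9 and 34.2 FPKM with 50% CO2 and 62.7, 93.5 and 96.4 FPKM in air at pH 5, with an interaction of 1.48 ± 0.26 (adjusted p = 0.0052), and was lowest in the 3 libraries at pH 5 with 50% CO2. PUT4, the proline permease, was called at -1.40 ± 0.24, and at -0.32 after correction for GC content it was not (adjusted p = 0.244). In ammonium transport and nitrogen catabolite repression 2 of 19 were called in each direction, or 10.5%, near the shares over all genes of 10.2% and 13.5%. The other positive gene was the repressor DAL80 (2.15 ± 0.46). The GC correction left 2 above and 1 below, and without the 2 pH 5 libraries 3 in each direction. Without those libraries 23.9% of all genes were called above and 21.9% below. Permeases for amino acids and peptides had 6 of 15 called below and 1 above, with MMP1, which imports S-methylmethionine, at -1.76 ± 0.32. The 6 became 3 after correction for GC content, 11 without the 2 pH 5 libraries and 3 to 11 with 1 library left out. Amino acid synthesis had 10 of 39 below and none above, among them TRP5 (-1.58 ± 0.29), ARG1 (-1.98 ± 0.42) and LEU4 (-1.68 ± 0.38). Sulfate assimilation and methionine synthesis had 10 of 26 below and 2 above. MET8, which passed the filter only through pH 3 in air, is among the 10, so this count is in part a description. The 10 became 6 after correction for GC content, 12 without the 2 pH 5 libraries and 4 without pH 3, 50% CO2 replicate 2, pH 3, 0.04% CO2 replicate 2 or 3, or pH 5, 50% CO2 replicate 2 or 3. CYS3, cystathionine gamma-lyase, had FPKM values of 110.1, 84.7 and 51.4 at pH 3 and 50% CO2, 591, 398 and 447 at pH 3 and 0.04% CO2, 105, 247 and 247 at pH 5 and 50% CO2 and 123.1, 193 and 85.1 at pH 5 and 0.04% CO2, with an interaction of -3.13 ± 0.55 (adjusted p = 0.0052). Its libraries at pH 3 in air exceeded all others. The amino acid synthesis count was 7 after correction for GC content, 22 without the 2 pH 5 libraries and 23 without pH 5, 50% CO2 replicate 1, and without replicate 2 or 3 of that group it was 4.

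Few Msn2/4 targets and heat-shock genes were called, 5% of the former in each direction and 12.5% of the latter below. Over all genes 10.2% were called above and 13.5% below. XBP1, a repressor induced by stress and starvation, had 45, 42 and 36.7 FPKM at pH 3/50% CO2, 149.7, 148 and 157 FPKM at pH 3/air, 54.3, 72.9 and 85.6 FPKM at pH 5/50% CO2 and 52.3, 63.1 and 36.2 FPKM at pH 5/air, with an interaction of -2.35 ± 0.28 (adjusted p = 0.00153), and was highest in the 3 libraries at pH 3 in air. It was the only one of 20 tested Msn2/4 targets called below, and SIP18 (2.22 ± 0.63), a desiccation protein, was the only one above. Without pH 5, 50% CO2 replicate 1 there were 4 below, without the 2 pH 5 libraries 2, and after correction for GC content 2 above. Of 24 heat-shock proteins and chaperones 3 were called below, SSA1, SSA2 and HSP60, and 52.2% and 51.9% of the sequences of SSA2 and SSA1 occur elsewhere in the genome. Glycogen and trehalose had 5 of 17 below (29.4%) and none above, proteasome genes 1 of 33 below (3.03%) and histones 1 of 10 below (10%). Calcineurin and calcium transport had 1 of 13 below (7.69%), and phosphate uptake 2 of 19 below (10.5%) and 1 above (5.26%). Inositol-regulated phospholipid synthesis had 3 of 19 below (15.8%) and 1 above (5.26%). Among cyclins and cell cycle regulators 3 of 16 were below (18.75%) and 1 above (6.25%), and the lower count is in part a description because it includes WHI5. The G1 cyclins CLN3 (-1.57 ± 0.36) and CLN2 (-1.33 ± 0.26) were called, and WHI5, which passed the filter only through pH 3 in air, was at -1.12 ± 0.32 and at 0.11 after correction for GC content. Autophagy genes had 9 of 35 above (25.7%) and 5 below (14.3%), 2 and 3 after that correction, and 20 and 9 without the 2 pH 5 libraries. Lower counts after correction for GC content were 1 for heat-shock proteins, 3 for glycogen and trehalose, 0 for the proteasome, histones and calcineurin, 1 for phosphate, 2 for inositol and 4 for cyclins. Without the 2 pH 5 libraries they were 3 for heat-shock proteins, 8 for glycogen and trehalose, 1 for the proteasome, 2 for histones, 5 for calcineurin, 5 for phosphate, 6 for inositol and 6 for cyclins. In that fit 2 heat-shock, 4 proteasome, 1 calcineurin, 2 phosphate and 3 inositol genes were called above. Over all genes the shares were 6.05% above and 9.28% below after correction for GC content, and 23.9% and 21.9% without the 2 libraries.

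**Figure D5:**
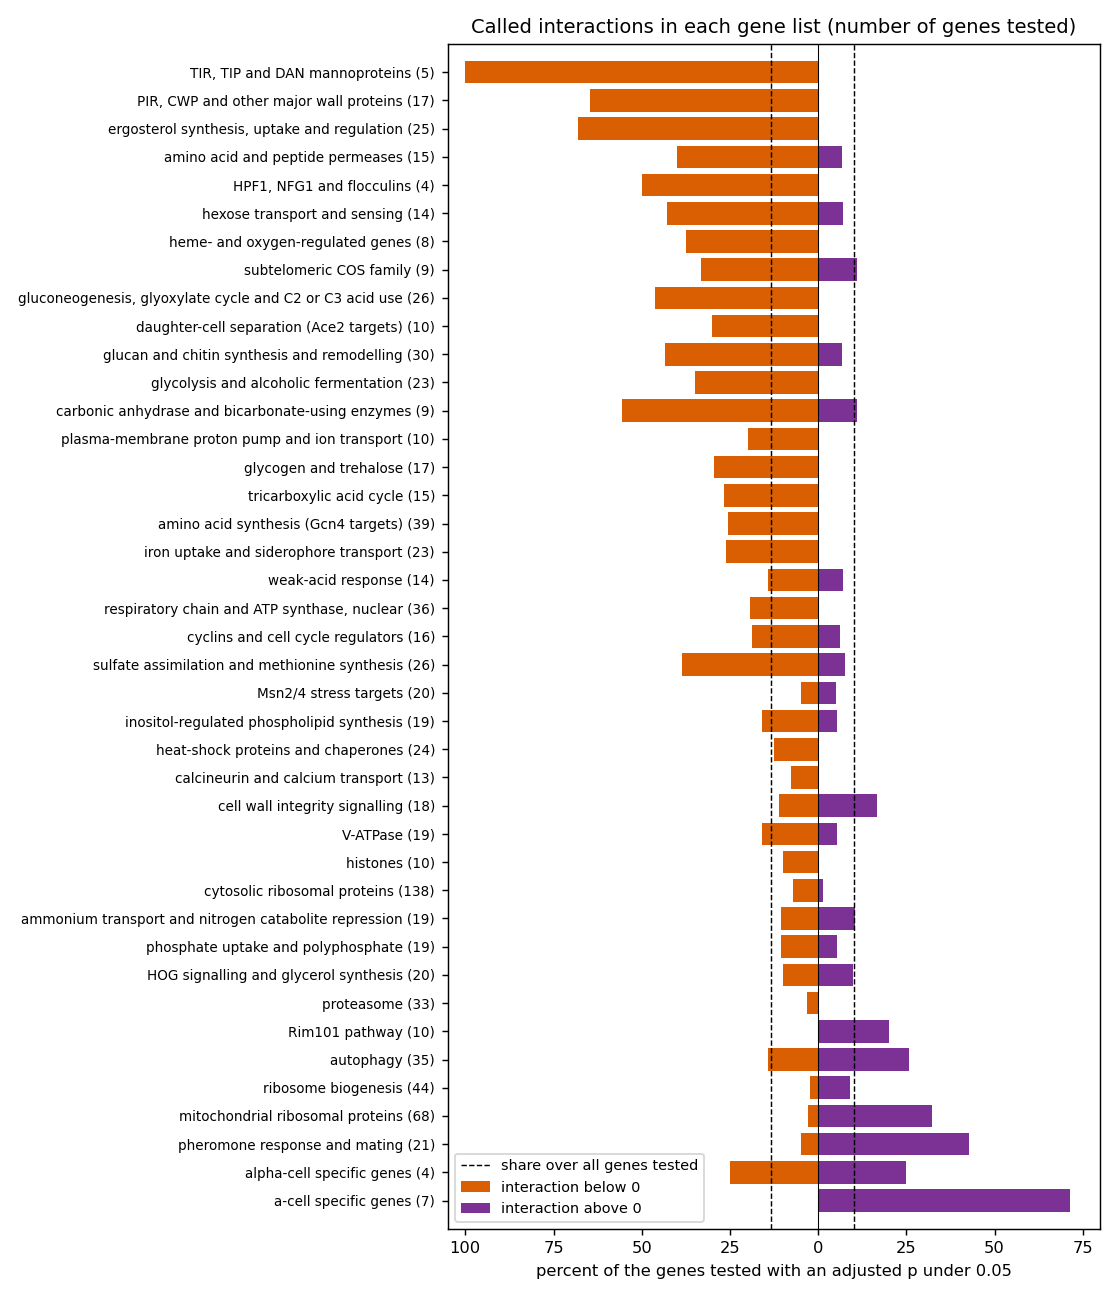
Percent of the tested genes of 41 lists (numbers tested in brackets) with an interaction below 0 (orange, to the left) or above 0 (purple, to the right) at an adjusted p under 0.05; dashed lines mark the shares over all 5078 genes, 13.5% and 10.2%. The TIR, TIP and DAN mannoproteins reach 100% below, ergosterol synthesis 68% below and the a-cell specific genes 71.4% above.

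The COS family at the chromosome ends, whose members share sequence, had 3 of 9 called below and 1 above. The counts were 3 and none after correction for GC content and 6 and 1 without the 2 pH 5 libraries. Over all genes 13.5% were called below and 10.2% above, and without those libraries 21.9% and 23.9%. COS12 had 20.1, 16.9 and 28.5 FPKM with 50% CO2 and 2.25, 1.89 and 2.58 FPKM in air at pH 3, against 23.1, 28.5 and 27.9 FPKM with 50% CO2 and 11.4, 5.97 and 14.1 FPKM in air at pH 5, with an interaction of 1.47 ± 0.37 (adjusted p = 0.0221). CO2 raised COS12 at both pH values, by 2.79 ± 0.26 at pH 3 and 1.32 ± 0.26 at pH 5, and pH 3 in air had the 3 lowest libraries. In these libraries COS2 was called at -1.80 ± 0.35, but 100% of its sequence occurs elsewhere in the genome.

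Of the 86 genes at the study's limits, 23 belonged to at least 1 of the 41 lists and 63 to none. Among the 63 were several enzymes of primary metabolism below the additive expectation. They include ZWF1 (-2.20), glucose-6-phosphate dehydrogenase, RPE1 (-2.23), ribulose-phosphate epimerase, and THR1 (-2.65), homoserine kinase. ILV6 (-2.92) is the regulatory subunit of acetolactate synthase, CAR2 (-2.18) ornithine transaminase, PRO3 (-1.59) the last enzyme of proline synthesis, and LCB1 (-1.70) a subunit of serine palmitoyltransferase. PET9 (-2.61) is the main mitochondrial ADP/ATP carrier. TUP1 (-1.82), the general corepressor, SUT1 (-1.60), a factor for sterol uptake under anaerobiosis, and YOX1 (-1.55), a cell cycle repressor, act in transcription. VRP1 (-1.66), PAN1 (-1.25), ABP1 (-1.38), AIM3 (-1.28) and YSC84 (-1.01) belong to the cortical actin patches of endocytosis. These genes were picked out of the 63 after their values were seen, and no list of them was tested.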

How the data were processed

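The deposited values are FPKM per gene, made by the authors from paired-end, strand-specific reads mapped to the S288C genome (release R64) with STAR 2.5.3a, with ambiguous reads removed and reads counted per gene by HTSeq, per the submitters' processing notes and the study's methods. Between 99.8% and 99.9% of low values per library were whole reads within 0.05 of a read, which gave the depths stated. Of the 26 libraries, 12 entered the fit, and the other 14, from retentostats, were not used.

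Genes with a mean of at least 10 FPKM over the 12 libraries were kept, the libraries scaled to a common median, and log2(FPKM + 1) fitted with limma 3.58.1 in R 4.3.3 with a mean-variance trend. Tests were two-sided with Benjamini-Hochberg adjustment. Fold changes on this scale understate those of genes near 1 FPKM. The fit was tested on simulated data with independent noise per gene and library, without a GC trend or deviations shared between libraries. Of 200 of 5078 genes changed by 2 on the log2 scale, 92.5% were recovered at an adjusted p of 0.05 and 82.5% at the study's limits. At a change of 1.5 the shares were 79.5% and 55.5%. The real libraries have such a trend and such deviations, so these rates may not hold for them. GC correction subtracted from each library a lowess curve of its deviations from the gene means on gene GC content. Of 6600 gene IDs, 5917 matched R64. Tables and figures were made with Python 3.11.15, pandas 2.3.3, numpy 2.4.6 and matplotlib 3.10.9.

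Named genes were the 12 most positive and 12 most negative interactions at the study's limits, up to 4 members of each list with the smallest adjusted p, and genes that the study names, and others are given where they complete a pathway or count. The contrast, the gene lists and the named-gene rule were chosen with earlier results of these data known. The GC correction, the fits without both pH 5 libraries that stood apart and their combinations were added after seeing the data.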

Additional observations from a re-analysis of the deposited data

Results flagged for a closer look

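In 24 genes the response to CO2 differed between pH 3 and pH 5 by a test of the difference itself, the interaction in limma, at the study's limits. They are the 12 with the most negative and the 12 with the most positive interaction. On the log2 scale the values below 0 were -4.74 for YAR068W, -4.61 for TIR3, -4.48 for HPF1, -4.33 for TIR2, -4.17 for TOS6 and -3.94 for FIT3. They were -3.82 for YIL012W, -3.18 for SUC2, -3.11 for TIP1, -3.02 for CIS3, -2.97 for CWP1 and -2.96 for TPO2. The values above 0 were 5.58 for MF(ALPHA)1, 2.54 for MFA1, 2.37 for PRM1, 2.18 for FUS1, 1.87 for NRS1 and 3.10 for FIG1. They were 1.87 for BAR1, 1.72 for CIS1, 1.68 for YEF1, 1.57 for YNR068C, 1.51 for CNL1 and 1.48 for DPA10. YAR068W, YIL012W, FIG1, PRM1 and FUS1 passed the filter on low values only through their highest group, so their values are a description.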

How the results depend on the processing

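With additivity on linear FPKM, where the limit was 1 in units of each gene's mean and not a fold above 2, 187 genes passed. At the study's limits the count of 86 genes was 57 without scaling (24 higher, 33 lower) and 134 with median-of-ratios size factors. It was 44 after correction for GC content, 510 without both pH 5 libraries that stood apart, 410 with both changes, 0 by limma without both retentostat libraries and 218 at a fold of 1.5 and an adjusted p of 0.01. At an adjusted p of 0.05 the count of 1206 was 2667 without scaling (2332 higher, 335 lower), 765 after correction for GC content, 2328 without both pH 5 libraries and 1898 with both changes. Without both retentostat libraries limma called 949 genes at an adjusted p of 0.05, and 2088 had an unadjusted p under 0.05. Leaving out 1 library gave 0 to 506 genes at the study's limits and 346 to 2452 at an adjusted p of 0.05. The cause of these differences was not tested. With the replicate number as a block the counts were 26 and 680, and 5 and 439 with the replicate block and correction for GC content. The numbers share no stated origin and were not used to pair libraries, and 5 of 18 same-numbered pairs had deviations correlated above 0.1 (range -0.802 to 0.502). All other alternatives stayed within 1.5 times both counts.

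Of 5180 values of 185 named genes under 28 alternatives, 4485 kept their direction and side of the threshold, 605 lost the call, 85 gained it and 5 changed sign. On linear FPKM, in units of each gene's mean, NFG1 was at 1.24, KDX1 at -0.010 and PDR12 at -0.28. After correction for GC content, with or without the replicate block, WHI5 was at 0.11. With 3 libraries per group, the interaction's standard error had a median of 0.24 on the log2 scale, which limits the departures from additivity that could be detected.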
